A study of Mus musculus with 6 samples.

Results

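Genes used to mark monocytes and tissue macrophages, 32 in number, were examined in articular cartilage of aged knockout (KO) and wildtype mice. They were taken by name from the 34709 genes of the expression table, and all 32 were present, each in a single row. They were kept in groups. The 7 monocyte genes were used to mark cells that arrive from the blood and marrow. The 19 resident macrophage genes were used for settled macrophages, among them those of the erythroblastic island, and the 6 shared genes are carried by both. Some are expressed by other cells too, such as Fn1 by stromal cells and Lyz2 by neutrophils. Whether any gene was limited to the cells of its group in this tissue was not tested. The animals were male C57BL/6J mice of 18 months, a KO line obtained from a supplier and wildtype littermates. The labels gave no Cre, transgene or treatment for either group. There were 3 KO and 3 wildtype libraries by their titles, made from mRNA of cartilage and read as pairs of 150 bp.

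Monocytes leave the bone marrow under control of the chemokine receptor CCR2 and circulate for a short time, and those that enter a tissue can turn into macrophages. Resident macrophages depend on the receptor CSF1R and its ligands CSF1 and IL-34, clear dying cells through receptors such as MERTK and AXL, and coat targets with the complement protein C1q. In bone marrow, macrophages with the haptoglobin-haemoglobin receptor CD163, the adhesion molecule VCAM1 and the transcription factor SPI-C sit at the centre of erythroblastic islands, where they take up expelled nuclei and return iron through ferroportin. Cartilage itself has no vessels, so such genes in a cartilage sample are read beside markers of marrow.

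The libraries were compared before any average was taken. KO replicates 2 and 3 were nearly identical, with a noise ratio (the spread between a pair of libraries relative to sampling of counts) of 5.80, whereas the other 14 of 15 pairs lay between 34.5 and 150. They were counted as 1 sample, so that the comparison had 2 KO samples and 3 wildtype samples. The fit of the 6 libraries as labelled is given beside it and treats near-identical libraries as independent. KO replicate 1 stood apart from them and nearer to the wildtype libraries, so each value is given by library. Total counts were 52268311 to 63331135 per library. The labels did not say whether replicates were separate animals, so p-values measure the spread between these samples, which may be technical. The tissue label was checked against chondrocyte markers, of which 8 of 10 passed the filter. Their summed level was 1063 to 4189 FPKM (fragments per kilobase, scaled to library size), while 10 neutrophil markers summed to 26880 to 62170 FPKM and 9 erythroid markers to 21111 to 93880 FPKM, so marrow or blood RNA was abundant in every library.

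The difference between KO and wildtype was then tested for every gene averaging 0.5 FPKM or more by edgeR's quasi-likelihood test, with adjustment over the 15373 tested genes. All 32 genes passed the filter. In the fit of 5 samples 0 genes reached an adjusted p-value under 0.05 (0.0% of those tested). The lowest adjusted p-value was 0.105, and 2106 genes had an unadjusted p-value under 0.05, with 7.63% of the tested genes higher in KO and 6.07% lower. In the fit of 6 libraries 2.46% of the tested genes were called higher and 1.25% lower. No direction given here for any of the 32 genes therefore passed the adjusted test with 5 samples, and higher and lower are used as descriptions of the values.

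By their medians, monocyte genes were higher in KO and resident macrophage genes lower, with the median of the shared genes near 0. The median log2 difference (KO minus wildtype) was 0.41 over the 7 monocyte genes, -0.40 over the 19 resident macrophage genes and 0.08 over the 6 shared genes, beside -0.02 over all tested genes. Single shared genes ran from -0.34 (Aif1) to 0.69 (Lyz2). All 7 monocyte genes had a positive difference, or 6 of 7 with total count scaling, where Cx3cr1 turned negative, and 4 of them reached an unadjusted p-value under 0.05. Of the 19 resident macrophage genes 17 had a negative difference, or 18 with total count scaling, where Adgre1 turned negative too, and 7 reached such a p-value. With 6 libraries 4 of the 32 genes were called, Ly6c2 and F13a1 as higher and Mrc1 and Spic as lower. DESeq2 on the 5 samples called 6 of them among 880 genes in all. In bulk RNA a lower level through fewer cells of a type cannot be told apart from less RNA per cell.

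**Figure D1:**
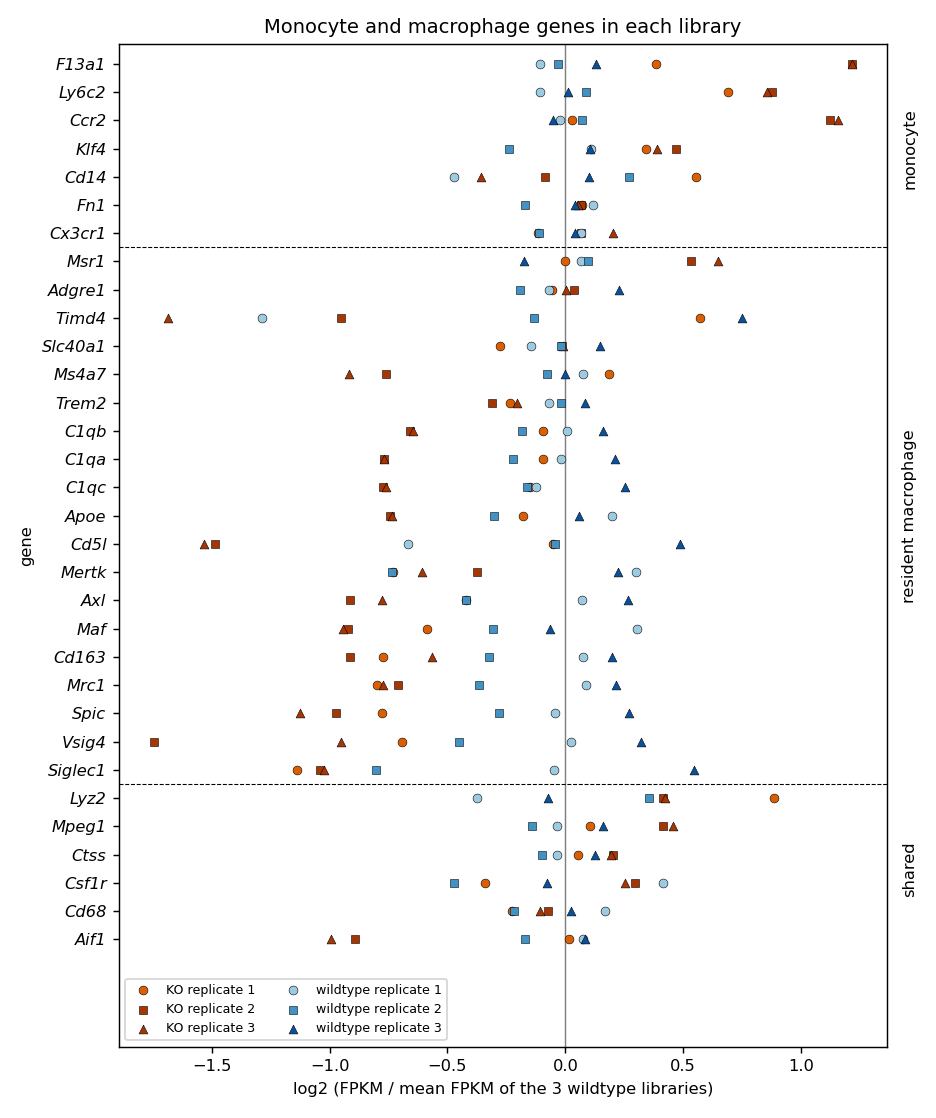
Level of each of the 32 genes in each library, as the log2 ratio of its FPKM to the mean of the 3 wildtype libraries, with genes in rows by group and orange symbols for KO and blue symbols for wildtype. Most monocyte rows have orange symbols at the right, and most resident macrophage rows have them at the left, with KO replicate 1 (orange circle) often among the blue symbols.

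The promoters of the 4 genes called with 6 libraries are shown first, since these genes mark both directions of the comparison. PU.1, encoded by Spi1, is the master transcription factor of the myeloid lineage and binds a purine-rich box with the core GAGGAA. The sequences are the 250 bases before the annotated start (RefSeq, GRCm38.p6), 5′ to 3′ on the strand of the gene, with each GAGGAA of either strand in capitals.
Ly6c2, chr15:75111972-75112221, minus strand: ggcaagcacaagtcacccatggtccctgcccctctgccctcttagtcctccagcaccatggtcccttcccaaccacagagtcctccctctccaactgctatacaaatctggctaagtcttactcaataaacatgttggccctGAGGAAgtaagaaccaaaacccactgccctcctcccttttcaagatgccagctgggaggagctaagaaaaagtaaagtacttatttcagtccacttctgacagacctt
F13a1, chr13:37050245-37050494, minus strand: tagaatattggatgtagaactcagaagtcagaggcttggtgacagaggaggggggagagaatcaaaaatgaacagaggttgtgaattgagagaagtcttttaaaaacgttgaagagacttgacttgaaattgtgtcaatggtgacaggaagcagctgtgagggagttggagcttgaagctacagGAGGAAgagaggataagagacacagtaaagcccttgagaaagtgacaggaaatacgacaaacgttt
Mrc1, chr2:14229164-14229413, plus strand: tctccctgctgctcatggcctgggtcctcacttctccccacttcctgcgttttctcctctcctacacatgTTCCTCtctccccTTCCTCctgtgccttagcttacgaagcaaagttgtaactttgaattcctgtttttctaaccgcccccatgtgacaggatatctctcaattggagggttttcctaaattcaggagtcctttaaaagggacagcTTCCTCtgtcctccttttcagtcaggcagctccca
Spic, chr10:88683024-88683273, minus strand: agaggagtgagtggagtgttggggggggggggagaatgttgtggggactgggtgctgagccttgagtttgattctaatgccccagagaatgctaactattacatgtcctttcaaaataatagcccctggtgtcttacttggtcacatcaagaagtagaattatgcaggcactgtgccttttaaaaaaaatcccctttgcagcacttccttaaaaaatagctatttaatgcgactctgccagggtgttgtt

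In the windows printed, the box stood 108 bases before the start of Ly6c2 and 66 bases before that of F13a1, on the strand of the gene. After these starts, beyond the printed bases, the box also stood at base 27 in Ly6c2 and at base 18 in F13a1. Both genes have a further RefSeq start. From the other start of Ly6c2 the same boxes lay 142 and 8 bases before. The other window of F13a1 held the box only after the start, at base 15. Mrc1 had it at 180, 167 and 35 bases before the start, each time on the opposite strand, and Spic had no such letters in its window. A RefSeq window of 300 bases (250 before to 50 after the start) was on hand for 23 of the 32 genes. GAGGAA on either strand was found in 14 of these 23 genes (60.9%), in 2 of 5 monocyte, 9 of 13 resident macrophage and 3 of 5 shared genes. The same letters occurred in 28.3% of all 32851 windows and in 31.3% of the 27025 genes with a window. The half-site TGCTGAC of MAF factors was found in 1 of the 23 genes, beside 5.28% of all genes with a window and 4.67% of all windows. TTGCNNAA, a C/EBP site, was found in 2 of the 23, beside 12.2% of all genes with a window and 10.8% of all windows. None of the 3 motifs contains another, and a match describes the sequence alone.

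Among the monocyte genes, Ly6c2 encodes the surface protein that marks classical inflammatory monocytes in mice. Its level was 217.7, 248.0 and 244.4 FPKM in KO replicates 1, 2 and 3 and 125.3, 143.6 and 136.1 FPKM in wildtype replicates 1, 2 and 3. The groups did not overlap, and KO replicate 1 lay with the other KO libraries. The KO mean was 232.0 ± 20.1 FPKM (SD, n = 2) against 135.0 ± 9.20 FPKM (SD, n = 3), a log2 difference of 0.79 (SE 0.16), or 1.73-fold, with an adjusted p-value of 0.166 by edgeR and of 0.0358 with 6 libraries. Ly6c2 (chr15:75108158-75111970, GRCm38) has a close copy, Ly6c1, which took 8.14% to 15.1% of their summed FPKM, so reads may be split between them.

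F13a1 encodes the A subunit of coagulation factor XIII, which classical monocytes carry. Its level was 59.2, 105.2 and 105.2 FPKM in the KO libraries and 42.0, 44.4 and 49.5 FPKM in the wildtype libraries. All KO libraries were above all wildtype libraries, but KO replicate 1 exceeded the wildtype mean 1.31-fold and replicates 2 and 3 exceeded it 2.32-fold. The log2 difference was 0.86 (SE 0.23, adjusted p-value 0.193 by edgeR, and 0.0497 with 6 libraries). Without KO replicates 2 and 3 it was 0.46. The gene spans chr13:36867178-37050244.

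The chemokine receptor gene Ccr2 (chr9:124101950-124113557), needed for the exit of monocytes from marrow, was split within the KO group. It was at 29.2 FPKM in KO replicate 1, inside the wildtype range of 27.7 to 30.1 FPKM, whereas KO replicates 2 and 3 reached 62.4 and 63.9 FPKM. By edgeR its adjusted p-value was 0.332, at a log2 difference of 0.69 (SE 0.27). That difference was 0.11 once KO replicates 2 and 3 were left out and 1.10 once KO replicate 1 was. The wildtype level of this gene was the most even of all 32 genes, with a ratio of the highest to the lowest library of 1.09. A value of KO replicate 1 within the wildtype range and of both other KO libraries above it occurred in 10.9% of the tested genes.

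Klf4, a transcription factor that monocytes need to mature, was at 14.8, 16.1 and 15.2 FPKM in KO and at 12.6, 9.87 and 12.5 FPKM in wildtype. The groups did not overlap, and the log2 difference was 0.41 (SE 0.14, adjusted p-value 0.265 by edgeR). Every KO library was above every wildtype library in 3 of the 7 monocyte genes, namely Ly6c2, F13a1 and Klf4, and in 11.3% of all tested genes.

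The other 3 monocyte genes did not separate the groups. Cx3cr1, the fractalkine receptor of non-classical monocytes, was at 5.96 to 7.42 FPKM in KO and at 5.98 to 6.75 FPKM in wildtype (log2 difference 0.03, SE 0.13). The fibronectin gene Fn1, which stromal cells express as well, differed by 0.09 (SE 0.18). The lipopolysaccharide co-receptor gene Cd14 was at 13.5, 8.67 and 7.17 FPKM in KO and at 6.63, 11.1 and 9.85 FPKM in wildtype, so its positive difference of 0.24 (SE 0.33) rested on KO replicate 1, and it was -0.26 without that library.

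**Figure D2:**
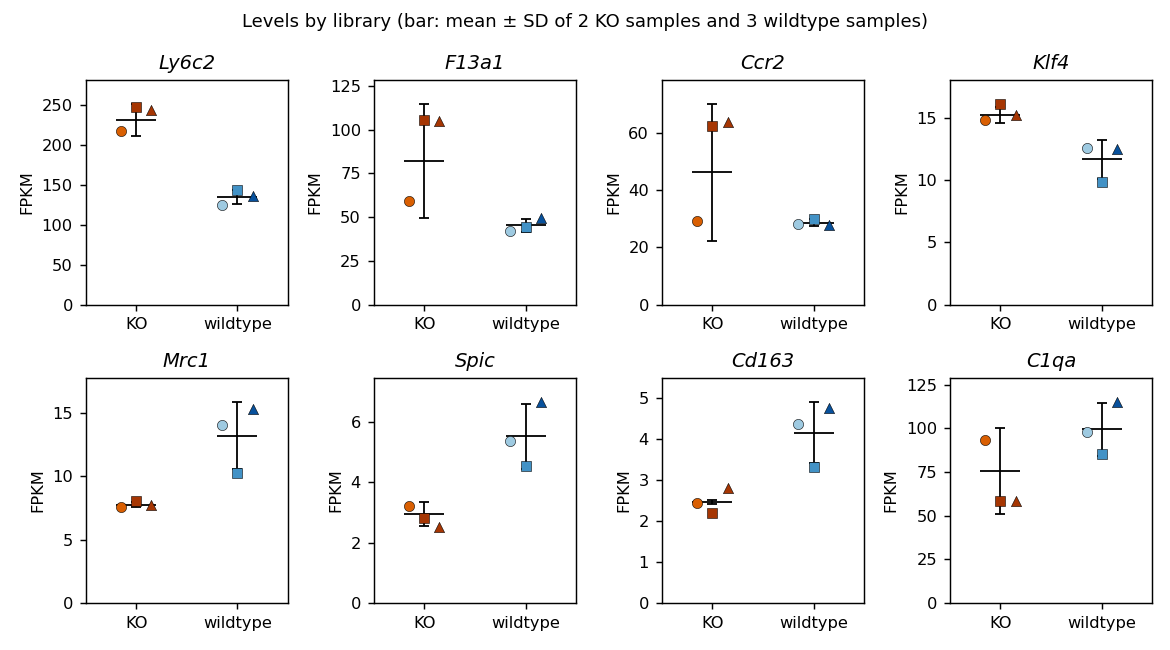
FPKM of 4 monocyte genes (upper row) and 4 resident macrophage genes (lower row) in each library, with circles, squares and triangles for replicates 1, 2 and 3 and bars for the mean ± SD of 2 KO samples (replicates 2 and 3 averaged) and 3 wildtype samples. Ccr2 and C1qa show KO replicate 1 at the wildtype level, whereas in Ly6c2, Mrc1, Spic and Cd163 all 3 KO libraries lie on the same side of the wildtype libraries.

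The resident macrophage genes were next taken by role, beginning with scavenger and uptake receptors. Mrc1 (chr2:14229392-14332057) encodes the mannose receptor CD206. It was at 7.61, 8.08 and 7.74 FPKM in KO and at 14.0, 10.3 and 15.4 FPKM in wildtype. The KO libraries were close together and all below the lowest wildtype library, replicate 2. The log2 difference was -0.75 (SE 0.17), with wildtype 1.68-fold above KO and an adjusted p-value of 0.171 by edgeR and of 0.0371 with 6 libraries.

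Cd163, the receptor for haemoglobin bound to haptoglobin, was at 2.43, 2.20 and 2.80 FPKM in KO and at 4.37, 3.31 and 4.75 FPKM in wildtype. The groups did not overlap, and its log2 difference of -0.73 (SE 0.18) had an adjusted p-value of 0.182 by edgeR and of 0.0527 with 6 libraries. Siglec1, the sialoadhesin of marrow and lymph node macrophages, was at 1.25, 1.34 and 1.35 FPKM in KO and at 2.66, 1.57 and 4.01 FPKM in wildtype. Its wildtype libraries differed by 2.55-fold among themselves, and the log2 difference was -1.06 (SE 0.35) and -0.67 without wildtype replicate 3. Vsig4, a complement receptor of resident macrophages, was at 1.52, 0.734 and 1.27 FPKM in KO and at 2.502, 1.80 and 3.07 FPKM in wildtype, and its difference was -0.92 (SE 0.36), or -0.60 without KO replicates 2 and 3. In these genes, too, every KO library was below every wildtype library.

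The scavenger receptor gene Msr1 stood against the other receptors. It was at 1.87 FPKM in KO replicate 1, inside the wildtype range of 1.66 to 2.00 FPKM, whereas KO replicates 2 and 3 reached 2.71 and 2.93 FPKM. The log2 difference was 0.33 (SE 0.21, unadjusted p-value 0.158 by edgeR), or 0.08 without KO replicates 2 and 3.

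Receptors for the clearance of dying cells varied more between the libraries of a group. Axl was at 20.3, 14.5 and 15.9 FPKM in KO and at 28.6, 20.3 and 32.8 FPKM in wildtype. KO replicate 1 and wildtype replicate 2 were level, and after TMM scaling they overlapped. The log2 difference was -0.58 (SE 0.23) and its adjusted p-value 0.329 by edgeR; leaving out KO replicates 2 and 3 it was -0.34. Mertk was at 3.80 to 4.86 FPKM in KO and at 7.76, 3.79 and 7.37 FPKM in wildtype, where replicate 2 lay with the KO libraries, and its difference of -0.58 (SE 0.29) had an unadjusted p-value of 0.0834. Timd4, the phosphatidylserine receptor TIM-4, gave no readable difference: it was at 1.78, 0.622 and 0.374 FPKM in KO and at 0.492, 1.10 and 2.02 FPKM in wildtype, with a 95% interval of the log2 difference from -1.70 to 1.63.

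The genes of the erythroblastic island macrophage were given separately. Spic (chr10:88674772-88683023) encodes the transcription factor SPI-C, which red pulp and marrow macrophages need for iron recycling. It was at 3.23, 2.81 and 2.53 FPKM in KO and at 5.36, 4.55 and 6.66 FPKM in wildtype. All KO libraries were below all wildtype libraries, and the log2 difference was -0.88 (SE 0.22), with wildtype 1.84-fold above KO and an adjusted p-value of 0.178 by edgeR and of 0.0422 with 6 libraries. Slc40a1, the iron exporter ferroportin, was at 16.7, 20.1 and 20.1 FPKM in KO and at 18.3, 20.0 and 22.5 FPKM in wildtype. Its groups overlapped, and the 95% interval of its log2 difference of -0.12 ran from -0.47 to 0.22. Adgre1, which encodes the pan-macrophage antigen F4/80, was at 17.3, 18.5 and 18.1 FPKM in KO and at 17.2, 15.8 and 21.1 FPKM in wildtype. Its difference was 0.00 (SE 0.15, 95% interval -0.35 to 0.35), and its sign turned with the scaling and with the samples kept. Cd163, Siglec1, Spic and Mrc1 thus had lower values in all KO libraries, while Slc40a1 and Adgre1, expressed at higher levels, overlapped.

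The 3 chains of C1q, encoded side by side on chromosome 4 (chr4:136880129-136898803), moved together from library to library. C1qa was at 93.1, 58.4 and 58.2 FPKM in KO and at 98.1, 85.1 and 115.0 FPKM in wildtype. C1qb was at 104.7, 70.9 and 71.5 FPKM in KO and at 112.3, 98.5 and 125.0 FPKM in wildtype. C1qc was at 48.0, 31.2 and 31.4 FPKM in KO and at 48.8, 47.6 and 63.4 FPKM in wildtype. In each chain KO replicate 1 lay within the wildtype range and KO replicates 2 and 3 below it, a pattern that 8.68% of the tested genes had. The log2 differences were -0.36 (SE 0.24), -0.31 (SE 0.21) and -0.39 (SE 0.24), with unadjusted p-values of 0.177, 0.174 and 0.139 by edgeR. Without KO replicate 1 they were -0.80, -0.69 and -0.80, and without KO replicates 2 and 3 they were -0.01, -0.01 and -0.07.

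Cd5l and Apoe had the same split. Cd5l, which encodes a secreted scavenger protein of macrophages that is a target of LXR receptors, was at 13.3 FPKM in KO replicate 1 and at 4.91 and 4.76 FPKM in replicates 2 and 3, beside 8.65, 13.4 and 19.3 FPKM in wildtype. Apoe, the lipid carrier, was at 305.3, 206.5 and 208.0 FPKM in KO and at 396.8, 280.4 and 360.2 FPKM in wildtype. Their differences of -0.57 (SE 0.49) and -0.40 (SE 0.25) did not exceed the spread between samples, and without KO replicates 2 and 3 they were 0.02 and -0.09. Ms4a7, a membrane protein of macrophages, was at 5.29, 2.75 and 2.46 FPKM in KO and at 4.41 to 4.89 FPKM in wildtype, with KO replicate 1 above and replicates 2 and 3 below the wildtype range. Its difference was -0.20 (SE 0.31), or -0.87 without KO replicate 1 and 0.27 without KO replicates 2 and 3.

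Maf, a transcription factor that keeps macrophages differentiated, was at 3.89, 3.08 and 3.04 FPKM in KO and at 7.21, 4.72 and 5.58 FPKM in wildtype. The groups did not overlap, and the log2 difference was -0.72 (SE 0.21, adjusted p-value 0.217 by edgeR, and 0.0554 with 6 libraries). Trem2, a lipid receptor of macrophages and osteoclast precursors, was at 3.27 to 3.52 FPKM in KO and at 3.86 to 4.29 FPKM in wildtype, without overlap, although its difference was small at -0.22 (SE 0.15). Every KO library was below every wildtype library in 8 of the 19 resident macrophage genes (Mrc1, Cd163, Axl, Vsig4, Siglec1, Spic, Maf and Trem2), and in 13.7% of all tested genes. KO replicate 1 was within the wildtype range and both other KO libraries below it in 5 further genes.

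**Figure D3:**
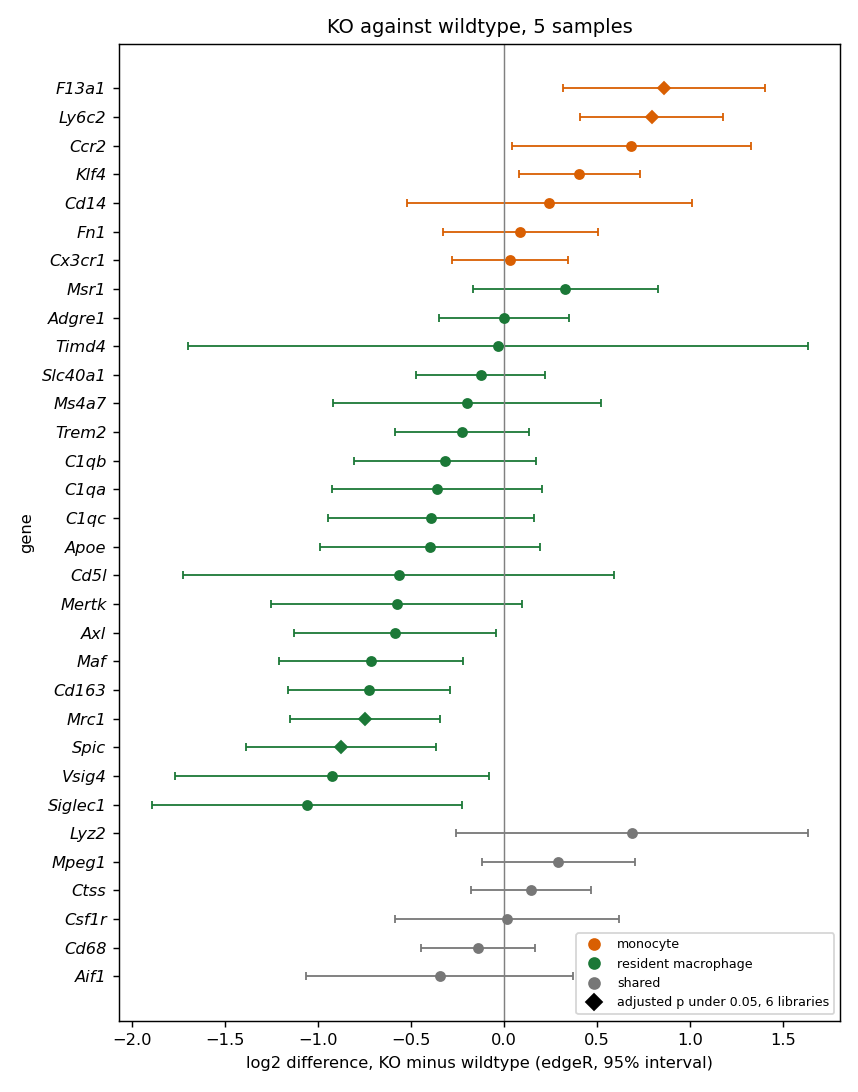
Log2 difference between KO and wildtype with its 95% interval (edgeR, 2 KO against 3 wildtype samples) for the 32 genes, coloured by group, with diamonds for the 4 genes with an adjusted p-value under 0.05 in the fit of 6 libraries. The intervals of 4 monocyte and 7 resident macrophage genes exclude 0, before adjustment, and those of the 6 shared genes include it.

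The shared genes, which monocytes and macrophages both use, showed no common direction, with 4 higher and 2 lower and 0 of 6 at an unadjusted p-value under 0.05. Csf1r, the receptor that macrophages need to survive, was at 22.9, 35.6 and 34.6 FPKM in KO and at 38.7, 20.9 and 27.5 FPKM in wildtype. Its levels overlapped fully, and the difference of 0.02 (SE 0.26) had a 95% interval from -0.59 to 0.62. Cd68, a lysosomal protein of phagocytes, was at 50.6, 56.3 and 55.0 FPKM in KO and at 66.7, 51.0 and 60.2 FPKM in wildtype (-0.14, SE 0.13).

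Lyz2, the lysozyme gene of monocytes, macrophages and neutrophils, was the most abundant of the 32 genes. It was at 7253, 5233 and 5272 FPKM in KO and at 3031, 5031 and 3735 FPKM in wildtype. KO lay above wildtype in FPKM but overlapped with it after TMM scaling, and the difference was 0.69 (SE 0.40, unadjusted p-value 0.129 by edgeR), or 0.37 without KO replicate 1. The perforin-like gene Mpeg1 and the lysosomal protease gene Ctss differed by 0.29 (SE 0.17) and 0.15 (SE 0.14). Aif1, the actin-binding protein IBA1, was at 10.2, 5.41 and 5.05 FPKM in KO and at 8.92 to 10.6 FPKM in wildtype, so that KO replicates 2 and 3 were below all others. Its difference was -0.34 (SE 0.30), or 0.10 without KO replicates 2 and 3.

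The weight of single libraries was read from the same counts. When KO replicate 1 was left out, the resident macrophage median was -0.80, beside -0.04 over all tested genes. Without KO replicates 2 and 3 it was -0.15, beside -0.01 over all tested genes. The lone KO sample was assumed to vary like the wildtype samples in both fits. Without wildtype replicate 3 the resident macrophage median was -0.24. The median of the monocyte genes stayed between 0.39 and 0.43 with either KO sample alone, but in both fits it was the value of Klf4. Other monocyte genes depended on the KO sample. Without KO replicate 1 and without KO replicates 2 and 3, respectively, Ccr2 was at 1.10 and 0.11 and F13a1 at 1.18 and 0.46. Cd14 was at -0.26 and 0.62, whereas Ly6c2 was at 0.83 and 0.77. Wildtype replicate 3 was the highest wildtype library in 14 of the 19 resident macrophage genes and replicate 2 the lowest in 14. Over all 32 genes the median ratio of the highest to the lowest wildtype library was 1.33, and that between KO replicates 2 and 3 was 1.03.

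A score was then formed for each library as the mean log2 CPM (log2 of counts scaled to the TMM-adjusted library total) of a group of genes minus its wildtype mean. The monocyte score was 0.36, 0.50 and 0.47 in KO and -0.10, 0.04 and 0.05 in wildtype. The resident macrophage score was -0.22, -0.71 and -0.70 in KO and -0.07, -0.17 and 0.24 in wildtype. KO replicate 1 was thus near wildtype replicate 2 in the macrophage genes but not in the monocyte genes. The monocyte score minus the macrophage score was 0.58, 1.21 and 1.17 in KO and -0.02, 0.21 and -0.19 in wildtype.

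Markers of other cells differed between the libraries too, though not all in the order of these scores. The neutrophil score was 0.84, 0.79 and 0.80 in KO and -0.25, 0.31 and -0.06 in wildtype, and 10 of 10 neutrophil markers were higher in KO, 6 with an unadjusted p-value under 0.05. The erythroid score was -0.44, -1.24 and -1.23 in KO and -0.20, -0.09 and 0.29 in wildtype, with 9 of 9 markers lower in KO, 5 at an unadjusted p-value under 0.05. The erythroid score had the order of the resident macrophage score in the KO group, with replicate 1 nearer to wildtype. This split was not particular to them. KO replicate 1 was also apart from replicates 2 and 3 in the B cell score and in the stromal score (-0.34, -0.78 and -0.82 in KO). The B cell score was -1.20, -1.76 and -1.74 in KO and -0.14 to 0.08 in wildtype, with 10 of 10 markers lower, 10 at an unadjusted p-value under 0.05 and 9 called with 6 libraries. Osteoclast markers, also myeloid, were lower in 7 of 8 cases, with wildtype replicate 1 at a score of 0.73 and all other libraries at -0.29 or below. The summed neutrophil markers were at 50528 to 62170 FPKM in KO and at 26880 to 43580 FPKM in wildtype, and the erythroid markers at 21111 to 52350 FPKM in KO and at 60524 to 93880 FPKM in wildtype. The chondrocyte score, in turn, was 0.79, -0.53 and -0.48 in KO and -0.30, 0.29 and 0.01 in wildtype, so KO replicate 1 was also the highest library in cartilage markers, although 0 of 8 tested markers had an unadjusted p-value under 0.05 by edgeR. Of 8 endothelial markers 3 were lower at such a p-value and of 8 stromal markers 2, and none higher. Matn3, a chondrocyte marker under the filter, was the only marker of these lists listed at 0 in any library. The part of any of these cells in the monocyte and macrophage differences was not tested.

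**Figure D4:**
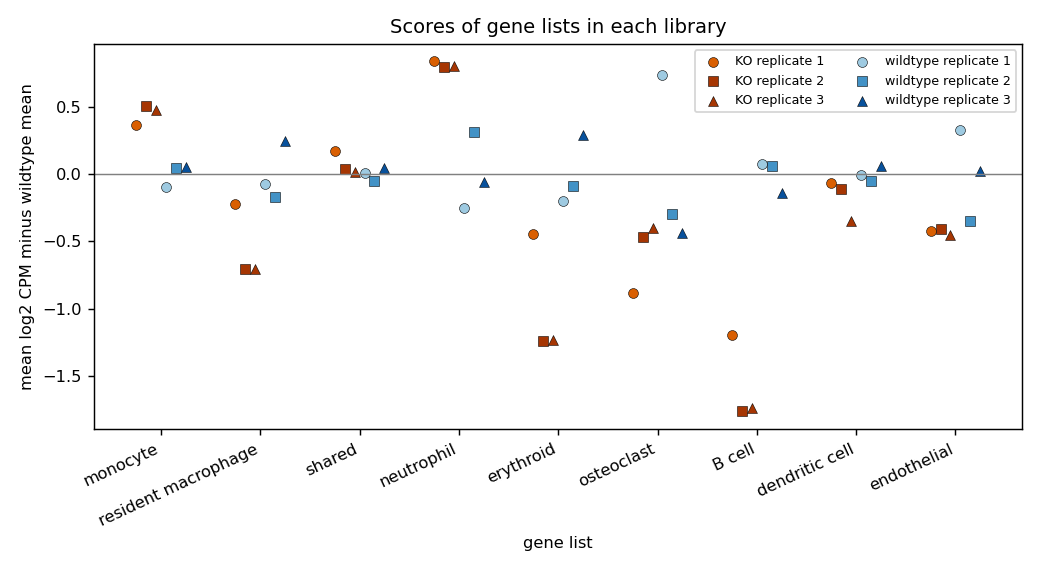
Score of each gene list in each library, as the mean log2 CPM minus its wildtype mean, with orange symbols for KO and blue symbols for wildtype. The monocyte and neutrophil scores are positive in all 3 KO libraries, and the resident macrophage, erythroid and B cell scores are negative in them. KO replicate 1 is the KO library nearest to wildtype in the monocyte, resident macrophage, erythroid and B cell lists, but not in the neutrophil list.

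The regulators and growth factors of the lineage were given from a list of 17 genes, of which 5 were higher and 3 lower at an unadjusted p-value under 0.05, with a median log2 difference of 0.05, or 0.18 without KO replicate 1 and 0.14 without KO replicates 2 and 3. Spi1, the gene of PU.1, was at 71.8, 89.1 and 90.2 FPKM in KO and at 44.6, 51.5 and 50.7 FPKM in wildtype, without overlap. Its difference was 0.73 (SE 0.15, adjusted p-value 0.166 by edgeR, and 0.0358 with 6 libraries). The receptor chains for granulocyte-macrophage colony-stimulating factor were higher as well, Csf2ra by 0.75 (SE 0.18, adjusted p-value 0.0422 with 6 libraries, edgeR) and Csf2rb by 1.04 (SE 0.32). Without KO replicates 2 and 3 these differences were 0.45 and 0.28. Csf2rb was at 16.4 FPKM in KO replicate 1, beside 42.4 and 42.3 FPKM in replicates 2 and 3 and 13.6 to 15.4 FPKM in wildtype.

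The CSF1R ligands had lower values in KO. Il34 was at 5.30, 3.79 and 3.55 FPKM in KO and at 7.42, 7.40 and 7.11 FPKM in wildtype. Its adjusted p-value was 0.266 by edgeR, and its difference was -0.67 (SE 0.23), or -0.38 without KO replicates 2 and 3. Csf1 was at 6.74 to 7.63 FPKM in KO and at 14.4, 8.57 and 8.43 FPKM in wildtype, with a difference of -0.50 (SE 0.24) and of -0.23 without wildtype replicate 1. Irf4, an interferon regulatory factor that B cells carry as well, was at 3.12, 3.72 and 4.08 FPKM in KO and at 6.42, 4.97 and 5.19 FPKM in wildtype (-0.64, SE 0.17). These 3 genes did not overlap between the groups, and their levels in FPKM were low beside Spi1.

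**Figure D5:**
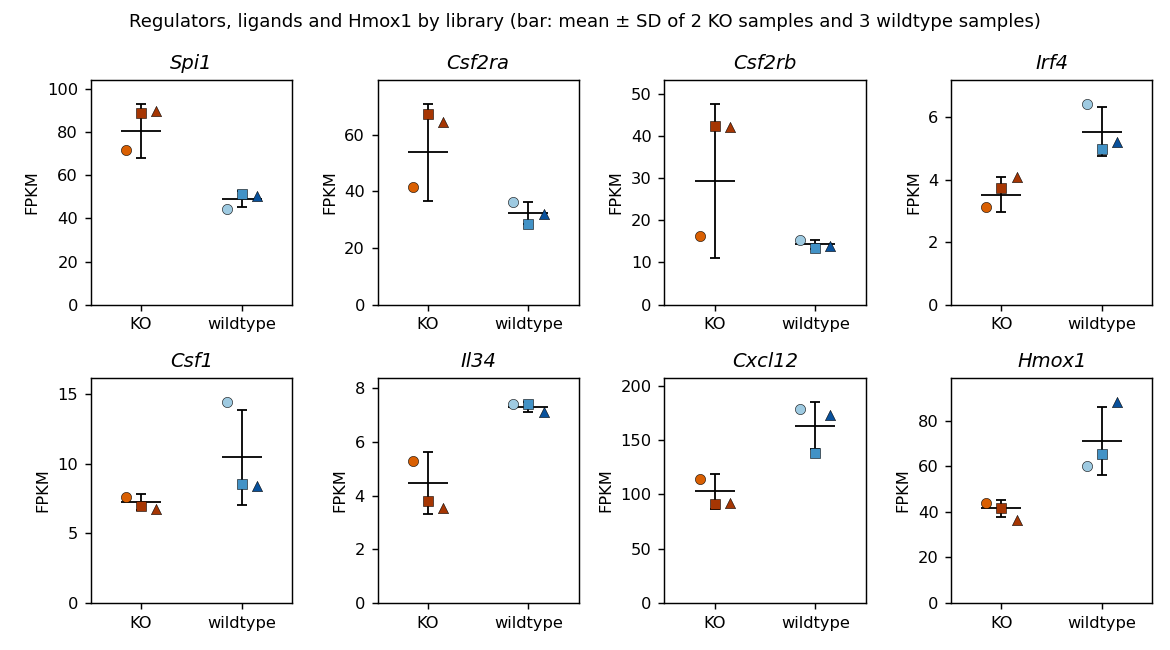
FPKM of Spi1, the receptor chains Csf2ra and Csf2rb, the transcription factor gene Irf4, the ligands Csf1 and Il34, the chemokine Cxcl12 and the heme oxygenase gene Hmox1 in each library, with circles, squares and triangles for replicates 1, 2 and 3 and bars for the mean ± SD of 2 KO and 3 wildtype samples. The first 3 are higher in every KO library than in any wildtype library and the other 5 lower.

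Further monocyte genes were counted from a list of 16 genes of classical and non-classical monocytes, with 10 higher and 1 lower at an unadjusted p-value under 0.05 and a median of 0.48. Nr4a1 (0.27, SE 0.42), Ace (-0.46, SE 0.25), Treml4 (-0.08, SE 0.19), Ear2 (0.17, SE 0.27) and S100a4 (0.26, SE 0.22) did not reach such a p-value. The count does not tell monocytes of either kind from neutrophils, whose markers were higher as well. Ms4a6c, a membrane protein of monocytes, was at 70.4, 96.4 and 96.4 FPKM in KO and at 44.5, 48.5 and 47.3 FPKM in wildtype (0.84, SE 0.15, adjusted p-value 0.0358 with 6 libraries, edgeR). The proteoglycan gene Vcan was at 3.46, 8.58 and 8.33 FPKM in KO and at 2.45, 2.12 and 1.68 FPKM in wildtype (1.51, SE 0.32), and the difference was 0.81 without KO replicates 2 and 3. Pglyrp1, which neutrophils carry as well, differed by 0.89 (SE 0.17). Against these, the fatty acid receptor gene Cd36, shared by non-classical monocytes, macrophages and vessels, was at 19.4, 12.1 and 13.02 FPKM in KO and at 36.3, 29.4 and 42.7 FPKM in wildtype (-1.14, SE 0.25, adjusted p-value 0.0371 with 6 libraries, edgeR).

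Of 9 recruitment genes 8 were tested, with a median of -0.37, which was -1.05 without KO replicate 1 and 0.18 without KO replicates 2 and 3. Cxcl12, the chemokine with which marrow stroma retains leukocytes, was at 114.5, 90.9 and 92.4 FPKM in KO and at 178.3, 138.4 and 173.2 FPKM in wildtype (-0.63, SE 0.23). The CCR2 ligand gene Ccl2 was low, at 0.283 to 1.34 FPKM in KO and 0.851 to 2.13 FPKM in wildtype, and Ccl7 did not pass the filter.

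Genes of iron recycling and the erythroblastic island gave a median of -0.20 over 15 genes, or -0.34 without KO replicate 1, with 0 higher and 3 lower at an unadjusted p-value under 0.05. Hmox1, the heme oxygenase that frees iron from heme, was at 44.1, 41.5 and 36.5 FPKM in KO and at 60.1, 65.4 and 88.2 FPKM in wildtype. The groups did not overlap, and the difference was -0.75 (SE 0.20, adjusted p-value 0.190 by edgeR, and 0.0476 with 6 libraries). Vcam1, by which island macrophages hold erythroblasts, was at 31.9, 28.2 and 27.7 FPKM in KO and at 43.8, 38.1 and 51.1 FPKM in wildtype (-0.54, SE 0.18). The erythropoietin receptor gene Epor, which erythroblasts carry, was at 26.1, 18.4 and 17.04 FPKM in KO and at 27.8, 32.5 and 38.8 FPKM in wildtype (-0.56, SE 0.24), and the difference was -0.94 without KO replicate 1 and -0.26 without KO replicates 2 and 3. The ferritin genes Fth1 and Ftl1 differed by -0.23 (SE 0.26) and -0.06 (SE 0.26). Without KO replicate 1 these were -0.63 and -0.29, and without KO replicates 2 and 3 they changed sign, to 0.09 and 0.15.

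Among bridging molecules and receptors of dying-cell clearance, 13 of 14 genes were tested, with 0 higher and 5 lower at an unadjusted p-value under 0.05 and a median of -0.20, or -0.43 without KO replicate 1. Gas6, the ligand that links dying cells to AXL and MERTK, was at 46.1, 28.6 and 27.3 FPKM in KO and at 64.0, 52.6 and 59.7 FPKM in wildtype (-0.63, SE 0.24, and -0.27 without KO replicates 2 and 3). The cholesterol exporter gene Abca1 was at 2.52, 3.44 and 3.23 FPKM in KO and at 6.28, 4.13 and 4.29 FPKM in wildtype (-0.72, SE 0.20). The lipase gene Lpl differed by -0.85 (SE 0.32), or -0.53 without wildtype replicate 3, and its wildtype replicate 2 lay within the KO range. Cd36 belongs to this list too, so it is counted in both.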

How the data were processed

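RNA was measured in 6 cartilage libraries, grouped by their titles. The gene knocked out and some genes of the lists are not reported here. The authors deposited FPKM values and counts for 34709 genes; per the labels, libraries were strand-specific with molecular identifiers, and the submitters' processing notes name cutadapt 1.9, HISAT2 2.0.4, UMI-tools, StringTie 1.3.4d, DESeq2 and edgeR. How the identifiers and the strand were used in counting is not given in the sources used here. The deposited counts are estimated counts: they were whole, but piled up at 4 (6596 values, against 4170 at 3 and 2332 at 5), so a count is not a single read pair. 0 per-sample columns were left unused. Positions followed GRCm38: 91.5% of the 34607 genes shared with GENCODE M21 had its start and end.

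Total counts were 52268311 to 63331135, and a count of 0 allowed, at 3 counts, up to 0.0574 CPM, for counting error only. This bound takes each count as an independent read, so with counts piled up at 4 it may be too low. KO replicates 2 and 3 were averaged and rounded. The tests took genes averaging 0.5 FPKM or more and used edgeR 4.0.16 (R 4.3.3; glmQLFTest, TMM, Benjamini-Hochberg), checked on simulated data. SEs were derived from the fitted difference and its F statistic, and intervals are at 95%. Scores used a prior count of 2. Alternatives were other scalings, filters, DESeq2 1.42.0, limma 3.58.1 on log2(FPKM + 1) and log2(FPKM + 0.1), counts divided by 4, the 6 libraries as labelled, a replicate block and each library left out.

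The genes and lists were chosen with earlier results of these data known. Values by library are given for 12 chosen genes and each of the 32 with an unadjusted p-value under 0.05, and for up to 4 genes of each further list with the smallest p-values, plus Spi1, Csf1, Il34, Hmox1 and Vcam1. Others were chosen after their values were seen.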

Additional observations from a re-analysis of the deposited data

How the results depend on the processing

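Over 2 KO and 3 wildtype samples 0 genes reached an adjusted p-value under 0.05, whereas 21 did with no filter, 880 with DESeq2 and 570 with the 6 libraries as labelled. With a library left out the count ran from 0 to 352 (352 without KO replicate 1, and 1 without wildtype replicate 2 and also without wildtype replicate 3), and it was 9 without KO replicates 2 and 3. Of the 32 genes, 11 had an unadjusted p-value under 0.05, against 5 with a minimum of 5 FPKM, where 23 of them were tested, and 6 without KO replicates 2 and 3. With a library left out the number ran from 7 to 17. Fits with a lone KO sample assume that it varies like the wildtype samples.

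Among the log2 differences recomputed under every setting, those of Csf1r and Adgre1, near 0, changed sign. Of the other genes, leaving out samples turned Ms4a7 (to 0.27), Aif1 (to 0.10), Timd4 (to 0.64) and Cd5l (to 0.02) positive and Cd14 (to -0.26) and Cx3cr1 (to -0.03) negative. Csf1r was at -0.031 with total count scaling, -0.039 with a minimum of 5 FPKM, -0.25 without KO replicates 2 and 3, and -0.15 to 0.25 with 1 library left out, with -0.0060 without wildtype replicate 3. Adgre1 was at -0.044 with total count scaling, -0.043 with a minimum of 5 FPKM, -0.0072 and -0.0070 with limma at pseudocounts of 1 and 0.1 FPKM, -0.0029 with 6 libraries, and -0.061 to 0.14 with 1 library left out. The median of the shared genes ran from -0.014 without wildtype replicate 2 to 0.20 without KO replicate 1.

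The replicate numbers did not pair the samples: same-numbered deviations correlated at -0.14, -0.11 and -0.06. With a replicate block 0 genes passed and 12 of the 32 genes had an unadjusted p-value under 0.05. Of the values recomputed, 324 were counted as unchanged. For a gene this meant the same sign and side of the threshold, and for a group median a shift of at most 0.1. For a count it allowed a modest change, such as 8 genes in place of 11. Of the others, 28 fell short of the threshold or fell further in count, and 12 newly passed it or rose further in count. A further 15 changed sign and 7 group medians shifted by over 0.1. The cause of the changes was not tested. At about 1 FPKM, Timd4 had the widest interval of the 32 genes.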

Other observations

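Dendritic cells, a further myeloid lineage, were followed by 10 genes, of which 9 were tested. Their score was -0.07, -0.11 and -0.35 in KO and -0.00, -0.05 and 0.06 in wildtype, with 0 genes higher and 1 lower at an unadjusted p-value under 0.05 by edgeR. That gene, Zbtb46, a transcription factor of classical dendritic cells, was at 1.35, 1.09 and 0.846 FPKM in KO and at 2.19, 1.45 and 1.88 FPKM in wildtype. The growth factor receptor gene Flt3 was at 2.01, 3.78 and 4.06 FPKM in KO and at 1.85 to 2.43 FPKM in wildtype, so KO replicate 1 lay with wildtype.

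Osteoclast genes, the bone-resorbing branch of the lineage, were set apart by wildtype replicate 1. Acp5, the tartrate-resistant phosphatase, was at 137.1, 161.6 and 160.5 FPKM in KO and at 472.7, 211.9 and 201.5 FPKM in wildtype, and Ctsk, the collagen-degrading cathepsin K, at 219.4, 243.5 and 242.1 FPKM and at 731.4, 333.1 and 277.7 FPKM. Mmp9, which neutrophils share, went the other way, at 200.5, 343.3 and 337.1 FPKM in KO and at 168.6 to 253.2 FPKM in wildtype.

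KO replicate 1 had the highest level of a pair of inducible genes. Cebpb, a transcription factor of emergency myelopoiesis, was at 26.8, 9.39 and 4.62 FPKM in KO and at 3.60, 6.04 and 6.08 FPKM in wildtype, and the chemokine gene Ccl8 was at 16.1, 2.56 and 2.12 FPKM in KO and at 9.60, 5.29 and 5.34 FPKM in wildtype. In Cebpb, KO replicates 2 and 3 also differed from each other. Cebpb is counted among the higher genes of both the regulator list and the list of classical and non-classical monocyte genes. Its log2 difference was 1.74 (SE 0.54), but 0.38 without KO replicate 1. Nr4a1 belongs to both lists too.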
